A study of Mus musculus with 16 samples.

Results

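The 9 enzymes of the mitochondrial citric acid cycle described here are citrate synthase (Cs), the 3 subunits of NAD-dependent isocitrate dehydrogenase (Idh3a, Idh3b, Idh3g), NADP-dependent isocitrate dehydrogenase (Idh2), 2 components of 2-oxoglutarate dehydrogenase (Ogdh, Dlst), the alpha subunit of succinyl-CoA ligase (Suclg1) and mitochondrial malate dehydrogenase (Mdh2). They were chosen by symbol from the 22180 genes to which the array annotation gave a probe set with 1 symbol, and each of the 9 had exactly 1 such probe set. For genes with several, the brightest on average was used.

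The tissue was gonadal white fat, a bulk mix of adipocytes and other cells, of male C57BL/6 mice aged 3 to 4 months. All were sampled in the morning, and the labels give no genetic change. One group of 8 samples is labelled fed, and the other 8 came from mice without food for 16 hours. Each sample was hybridised to 1 Affymetrix whole-transcript array, and all values are log2 intensities, so a difference of 1 is a doubling.

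The citric acid cycle oxidises acetyl-CoA, made from pyruvate or fatty acids, to carbon dioxide and hands the electrons to NADH and FADH2 for respiration. In white adipocytes it also supplies citrate, which leaves the mitochondrion and is cut to acetyl-CoA in the cytosol, the carbon source for making fatty acids. Cs forms citrate, the isocitrate dehydrogenases and the 2-oxoglutarate dehydrogenase complex remove carbon dioxide, succinyl-CoA ligase makes GTP or ATP, and Mdh2 regenerates the oxaloacetate that Cs consumes.

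All 16 arrays covered a similar range, with array medians between 3.60 and 3.69 and correlations between arrays of 0.966 to 0.993. The adipocyte marker list was bright throughout, with means of its 10 measured genes between 11.18 and 11.48 in fed and between 11.29 and 11.51 in fasted arrays, and 2 of them rose and 2 fell. A few arrays held more transcripts of other cells. Genes of motile cilia averaged 5.54 in fed replicate 2 and 4.98 in fasted replicate 7, against 3.12 to 3.83 in the other arrays. Hepatocyte transcripts spread more evenly, from 5.67 up to 8.59 in fed replicate 3. They averaged 8.35 in fed replicate 2, 8.22 in fed replicate 4 and 7.99 in fasted replicate 4. Fed replicate 3 is still counted below, with fed replicate 2 and fasted replicate 7, among the 3 arrays that stood apart. In fasted replicate 1, stromal markers averaged 9.71 and macrophage markers 9.31, against at most 9.51 and 8.99 in the other arrays. That array is not among the 3 and was left out only singly. In these bulk samples, fewer cells of a type and less RNA per cell cannot be told apart. The labels do not say that every sample is a separate mouse, so p-values here reflect only how far these samples spread, which may be technical.

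Of the 9 enzymes, 5 were lower in fasted fat, Idh3a, Cs, Idh2, Suclg1 and Mdh2, and none was higher. The other 4, Idh3b, Idh3g, Ogdh and Dlst, did not pass the test. Calls rest on limma, with a p under 0.05 after Benjamini-Hochberg adjustment over all 22180 genes. By that rule 19.2% of all genes were called, 10.7% lower and 8.49% higher in fasted fat. Those shares count dim genes too, while group means of the 9 enzymes ran from 7.12 to 10.54, well above the array medians. When the 10832 brighter genes were tested alone, 2583 were lower and 1970 higher, against 2368 and 1883 of all 22180. The share of lower calls was thus larger among brighter genes, which are the nearer comparison for these enzymes. The median log2 change was -0.28 over the 9 enzymes and -0.0042 over all genes. Each of the 5 calls was also made in every analysis that left out 1 of the 16 arrays, and when fed replicates 2 and 3 and fasted replicate 7 were left out together.

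**Figure D1:**
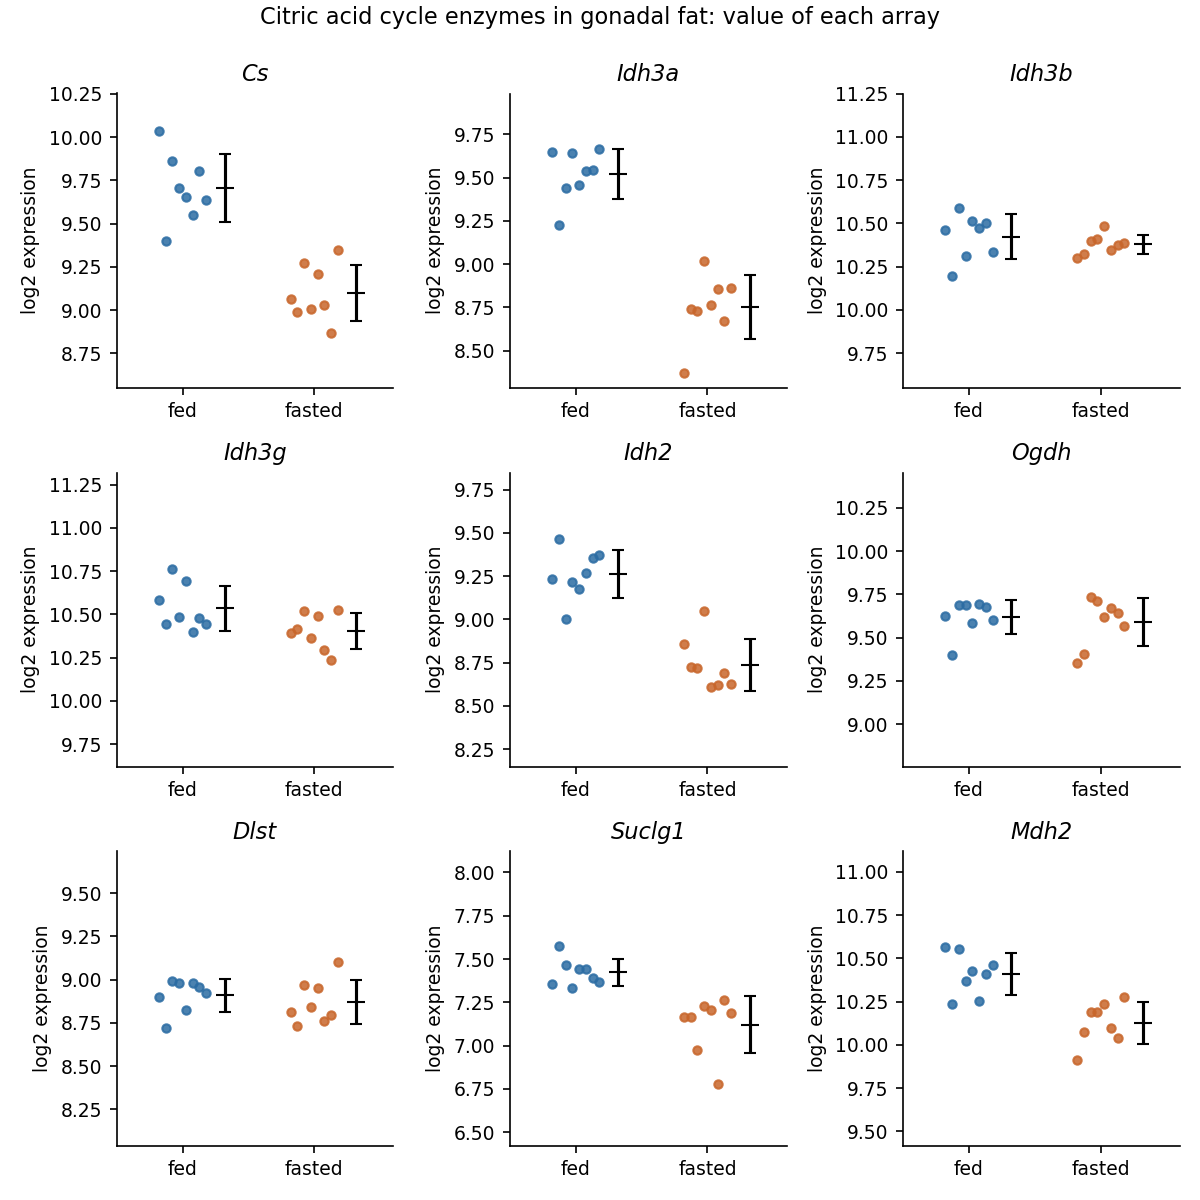
Log2 expression of the 9 enzymes in each array (points; 8 fed in blue, 8 fasted in orange) with the group mean and SD beside them; every panel spans the same number of log2 units. The fed and fasted points of Cs, Idh3a and Suclg1 do not overlap, and those of the other 6 enzymes do.

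Citrate synthase, which opens the cycle by joining acetyl-CoA to oxaloacetate, is encoded on chromosome 10 (GRCm38.p6, chr10:128337727-128362482). Its log2 value in the fed arrays ran from 9.40 through a median of 9.68 to 10.04, and in the fasted arrays from 8.87 through 9.05 to 9.35. The groups did not overlap: even fed replicate 2, the lowest fed array, was above fasted replicate 8, the highest fasted array. The mean went from 9.71 ± 0.20 to 9.10 ± 0.16 (SD, n = 8 each), a log2 change of -0.61 (SE 0.091, adjusted p = 7.47e-05). Of all genes tested, 2.88% had a lower log2 change than Cs.

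Isocitrate is oxidised to 2-oxoglutarate by an NAD-dependent enzyme built from 3 kinds of subunit. Idh3a (chr9:54586511-54604662) encodes the catalytic alpha subunit. It ranged from 9.23 through 9.54 to 9.66 in fed arrays and from 8.37 through 8.75 to 9.02 in fasted arrays. No fasted array reached the lowest fed array, and fasted replicate 1 lay well below the other fasted arrays. The mean went from 9.52 ± 0.15 to 8.75 ± 0.19 (SD, n = 8 each), a log2 change of -0.77 (SE 0.086, adjusted p = 3.03e-06), and 1.67% of all genes had a lower log2 change. Without the 3 arrays that stood apart, the log2 change was -0.82.

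The regulatory subunits of the same enzyme did not pass the test. Idh3b (chr2:130279309-130284451), the beta subunit, ranged from 10.20 through 10.47 to 10.59 in fed and from 10.30 through 10.38 to 10.48 in fasted arrays, so that every fasted array lay inside the fed range. Its log2 change was -0.044 (SE 0.063, 95% interval -0.18 to 0.087, adjusted p = 0.726). Idh3g (chrX:73778963-73786897), the gamma subunit, ranged from 10.40 through 10.48 to 10.76 in fed and from 10.24 through 10.40 to 10.52 in fasted arrays. The ranges overlapped between 10.40 and 10.52, and 4 fasted arrays lay below all fed arrays. Its log2 change was -0.13 (SE 0.068, 95% interval -0.28 to 0.011, adjusted p = 0.216).

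Idh2 (chr7:80094845-80118608) makes the same product in the same compartment but yields NADPH. It ranged from 9.004 through 9.25 to 9.46 in fed arrays and from 8.61 through 8.70 to 9.05 in fasted arrays. The overlap came from 1 array on each side: fasted replicate 4, at 9.05, lay above fed replicate 3, at 9.004, and the other 7 fasted arrays were below all fed arrays. The log2 change was -0.52 (SE 0.078, adjusted p = 6.61e-05), a 1.44-fold lower mean.

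The 2-oxoglutarate dehydrogenase complex carries out the next oxidation. Ogdh (chr11:6291597-6359094), its E1 component, which binds 2-oxoglutarate, ranged from 9.40 through 9.65 to 9.70 in fed and from 9.36 through 9.63 to 9.73 in fasted arrays. Dlst (chr12:85110822-85134091), the E2 core that passes the succinyl group to coenzyme A, ranged from 8.72 through 8.94 to 8.99 in fed and from 8.73 through 8.83 to 9.10 in fasted arrays. The groups overlapped over nearly their whole ranges for both genes. The log2 change was -0.030 for Ogdh (SE 0.069, 95% interval -0.18 to 0.12, adjusted p = 0.846) and -0.038 for Dlst (SE 0.066, 95% interval -0.18 to 0.10, adjusted p = 0.785). With array medians subtracted, the sign of both turned, to 0.0098 for Ogdh and 0.0016 for Dlst, and neither was called.

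Suclg1 (chr6:73248505-73276907) encodes the alpha subunit shared by the GTP- and ATP-forming succinyl-CoA ligases. It ranged from 7.33 through 7.42 to 7.57 in fed arrays and from 6.78 through 7.18 to 7.26 in fasted arrays. The groups did not overlap, and fasted replicate 6, at 6.78, was the lowest. The log2 change was -0.30 (SE 0.072, adjusted p = 0.00494), a 1.23-fold lower mean.

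Mdh2 (chr5:135778649-135790386) closes the cycle by oxidising malate to oxaloacetate. It ranged from 10.24 through 10.42 to 10.56 in fed arrays and from 9.91 through 10.14 to 10.28 in fasted arrays. Of the 8 fasted arrays, 6 were below all fed arrays, and fasted replicates 5 and 8 reached into the low end of the fed range. The log2 change was -0.28 (SE 0.069, adjusted p = 0.00637), a 1.22-fold lower mean. With array medians subtracted, which moved the median of all genes by under 0.1, it was -0.24 with an adjusted p of 0.0635 and no longer called.

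**Figure D2:**
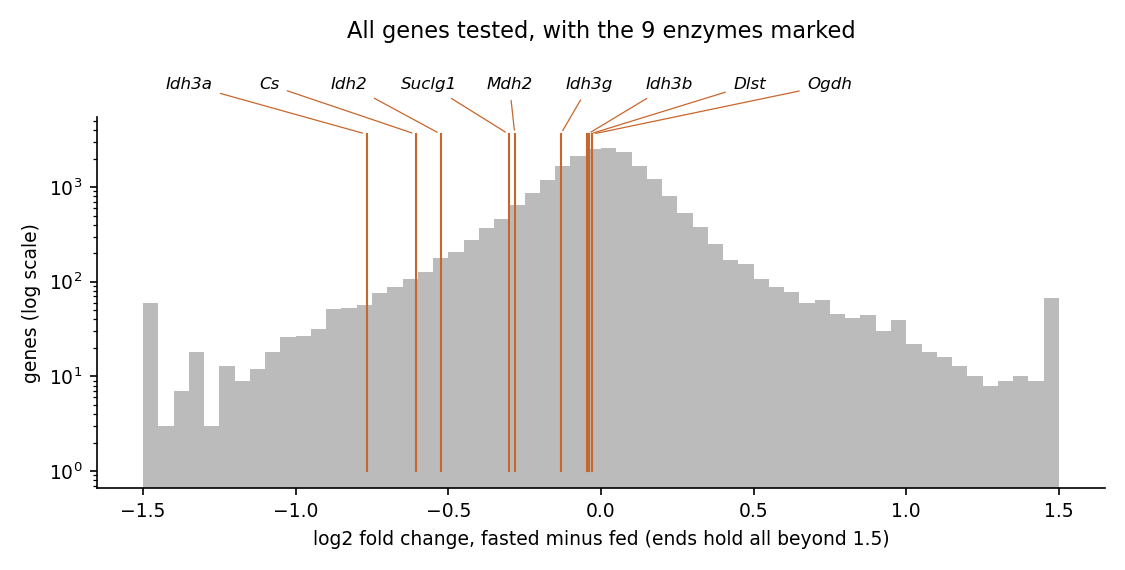
Histogram of the log2 fold change (fasted minus fed) of all 22180 genes, with the count of genes on a log axis and the 9 enzymes marked by lines; the end bins hold all genes beyond 1.5 in either direction. Idh3a, Cs and Idh2 lie in the lower tail, Suclg1 and Mdh2 nearer the centre, and the other 4 close to 0.

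Groups that did not overlap, with every fasted array below every fed array, were found for 3 of the 9 enzymes (Cs, Idh3a, Suclg1) and for 3.45% of all genes, with 3.03% separated in the other direction. These shares, and the ranks of Cs and Idh3a above, count the dim genes too. With fed replicates 2 and 3 and fasted replicate 7 left out, the log2 changes were -0.60 for Cs, -0.53 for Idh2, -0.29 for Suclg1 (adjusted p = 0.0194) and -0.27 for Mdh2 (adjusted p = 0.0203). Under the same setting the 4 enzymes that were not called stayed so, with log2 changes of -0.054 for Idh3b, -0.086 for Idh3g, -0.064 for Ogdh and -0.046 for Dlst.

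Whether 1 enzyme changed by more than another was tested on the difference of their log2 values within each array, which compares changes and not levels, with a two-sided exact permutation test over the 8 and 8 arrays and adjustment over all 36 pairs. The smallest p that the 12870 arrangements can give is 1.55e-04, or 5.59e-04 after adjustment. Of the 36 pairs, 24 were called. Where 1 enzyme of the pair had been called lower and the other not called, 19 of 20 pairs differed, the exception being Idh3g with Suclg1 (adjusted p = 0.0897 by exact permutation). Among pairs of enzymes that were both lower, 5 of 10 differed. That count was 3 of 10 without fed replicate 1, 7 or 8 or fasted replicate 2, 5 or 7, each of which ended the calls of Suclg1 with Cs and with Idh2. Among the 4 enzymes that were not called, 0 of 6 pairs differed, with adjusted exact permutation p from 0.138 to 0.911. The kinds of pair were set by the enzymes' own calls on the same arrays. The counts by kind therefore follow in part from that sorting and are descriptions, and the 36 pairs reuse 9 enzymes.

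The transcript signals of the subunits of NAD-dependent isocitrate dehydrogenase, each from 1 probe set, moved apart. Idh3a minus Idh3b lay between -1.15 and -0.67 in fed arrays (-0.90 ± 0.17, SD, n = 8) and between -1.93 and -1.39 in fasted arrays (-1.63 ± 0.17, SD, n = 8). The groups did not overlap, and the change in the difference was -0.72 (SE 0.084, exact permutation p = 1.55e-04, adjusted 5.59e-04). Against Idh3g, the change for Idh3a was -0.64 (SE 0.10, with the same smallest exact permutation p and again no overlap). The regulatory subunits were not shown to differ from each other: Idh3b minus Idh3g changed by 0.088 (SE 0.052, adjusted exact permutation p = 0.138), although this pair was called when fed replicate 6 was left out.

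The other pairs at single steps gave a mixed picture. Idh3a was not shown to fall by more than Idh2, with a change of -0.24 (SE 0.11, adjusted exact permutation p = 0.0609), and that pair was called at 0.0147 without the 3 arrays that stood apart. Cs fell by more than Mdh2, the enzyme that feeds it oxaloacetate, by -0.32 (SE 0.057, adjusted exact permutation p = 5.59e-04), again with no overlap. Cs and Idh3a were not shown to differ in their change (0.16, SE 0.10, adjusted exact permutation p = 0.161), nor were Suclg1 and Mdh2 (-0.020, SE 0.094, adjusted exact permutation p = 0.890).

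Ogdh and Dlst kept a nearly fixed difference in the fed arrays. It was 0.71 ± 0.025 (SD, n = 8) in the fed group and 0.72 ± 0.16 (SD, n = 8) in the fasted group. The change in the mean was 0.0082 (SE 0.057, adjusted exact permutation p = 0.911), and the wider spread in the fasted arrays was not tested.

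**Figure D3:**
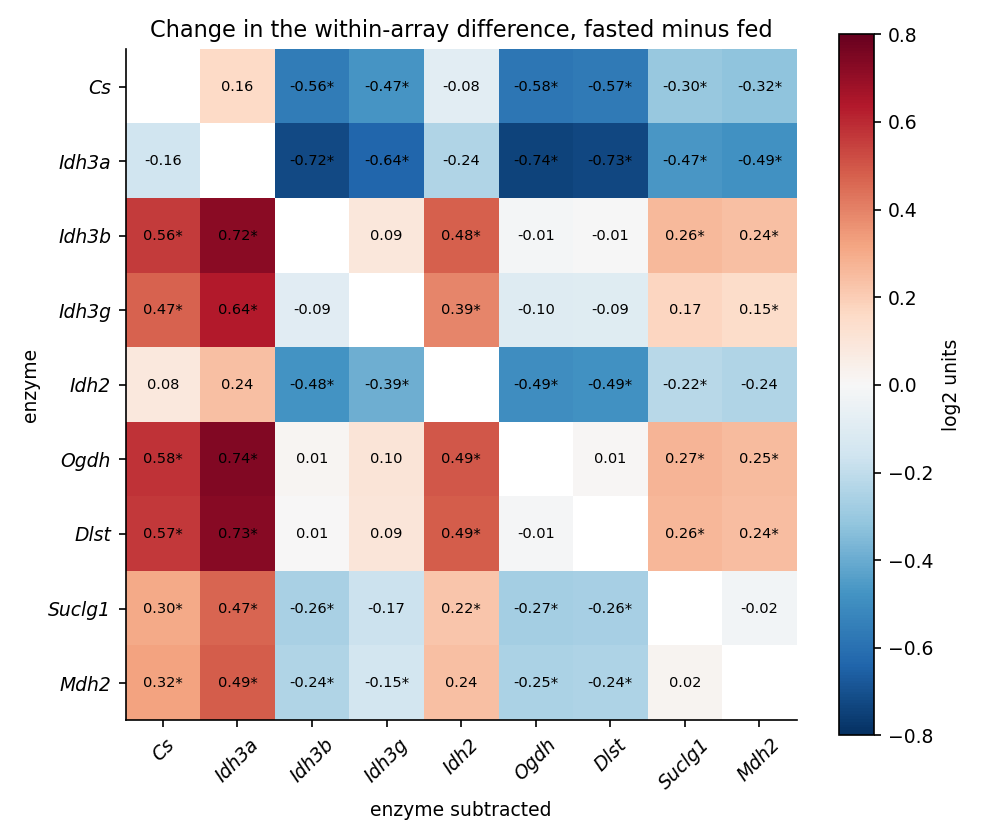
Change, fasted minus fed, in the within-array difference between the enzyme of each row and the enzyme of each column, in log2 units; a star marks an adjusted exact permutation p under 0.05 over 36 pairs. The row of Idh3a holds the most negative values, down to -0.74 against Ogdh, and the cells among Idh3b, Idh3g, Ogdh and Dlst lie between -0.10 and 0.10 with no star.

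Of 8 other mitochondrial genes of the cycle that were measured, 6 fell, none rose and 2 did not pass the test. Counted with the 9 enzymes above, 11 of 17 measured cycle genes fell. With array medians subtracted, the calls of Sucla2, Sdhb, Fh1 and Mdh2 were lost, which left 3 of those 8 and 7 of all 17 called lower. Dld, the E3 subunit that 2-oxoglutarate dehydrogenase shares with pyruvate dehydrogenase, went from 9.61 ± 0.11 to 9.20 ± 0.14 (SD, n = 8 each), a log2 change of -0.40 (SE 0.070, adjusted p = 3.28e-04). So of the E1, E2 and E3 subunits of that complex, the shared E3 was called lower while Ogdh and Dlst were not. The difference between Dld and either of them was not tested.

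Succinyl-CoA ligase pairs the alpha subunit with 1 of 2 beta subunits. Sucla2, the ATP-forming beta subunit, fell by 0.24 on the log2 scale (SE 0.070, adjusted p = 0.0186; 0.102 with array medians subtracted). Suclg2, the GTP-forming one, had a log2 change of -0.095 (SE 0.18, adjusted p = 0.812) with the widest spread of the cycle genes, from 7.60 to 8.88 in fed and from 7.65 to 8.80 in fasted arrays. Its 95% interval, -0.48 to 0.29, holds the change of Sucla2.

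Succinate dehydrogenase, which is also complex II of the respiratory chain, has 4 subunits. The membrane anchors Sdhc and Sdhd fell, by 0.44 (SE 0.061, adjusted p = 2.98e-05) and 0.54 (SE 0.074, adjusted p = 2.91e-05) on the log2 scale, with no overlap between the groups for either. Sdha, the flavoprotein that oxidises succinate, had a log2 change of -0.036 (SE 0.070, adjusted p = 0.816). Sdhb, the iron-sulfur subunit, fell by 0.26 (SE 0.084, adjusted p = 0.0386), a call that held without fed replicate 2 or without fasted replicate 4, 5, 6 or 8 and was lost without any 1 of the other 11 arrays (adjusted p 0.0518 to 0.0748) and with array medians subtracted (0.173). That call was also lost without the 3 arrays that stood apart (adjusted p = 0.0513) and with adjustment over all probe sets (0.0675). Of the 4 measured assembly factors of succinate dehydrogenase, Sdhaf4 (log2 change -0.60, adjusted p = 0.00193) and Sdhaf3 (-0.40, adjusted p = 0.00890, and 0.0541 by the exact rank sum test) fell. Sdhaf1 had -0.24 (adjusted p = 0.0952, called at 0.0269 without fed replicate 6), while its dimmer probe set had a change of the opposite sign, 0.21 (adjusted p = 0.0678), and Sdhaf2 -0.071 (adjusted p = 0.659).

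Fh1, the fumarase that makes malate for Mdh2, fell by 0.26 on the log2 scale (SE 0.080, adjusted p = 0.0270). That call was lost without fasted replicate 1, 6 or 7 or without fed replicate 1, 3 or 5 (adjusted p 0.0505 to 0.0557), by the exact rank sum test (0.0541) and with array medians subtracted (0.144).

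**Figure D4:**
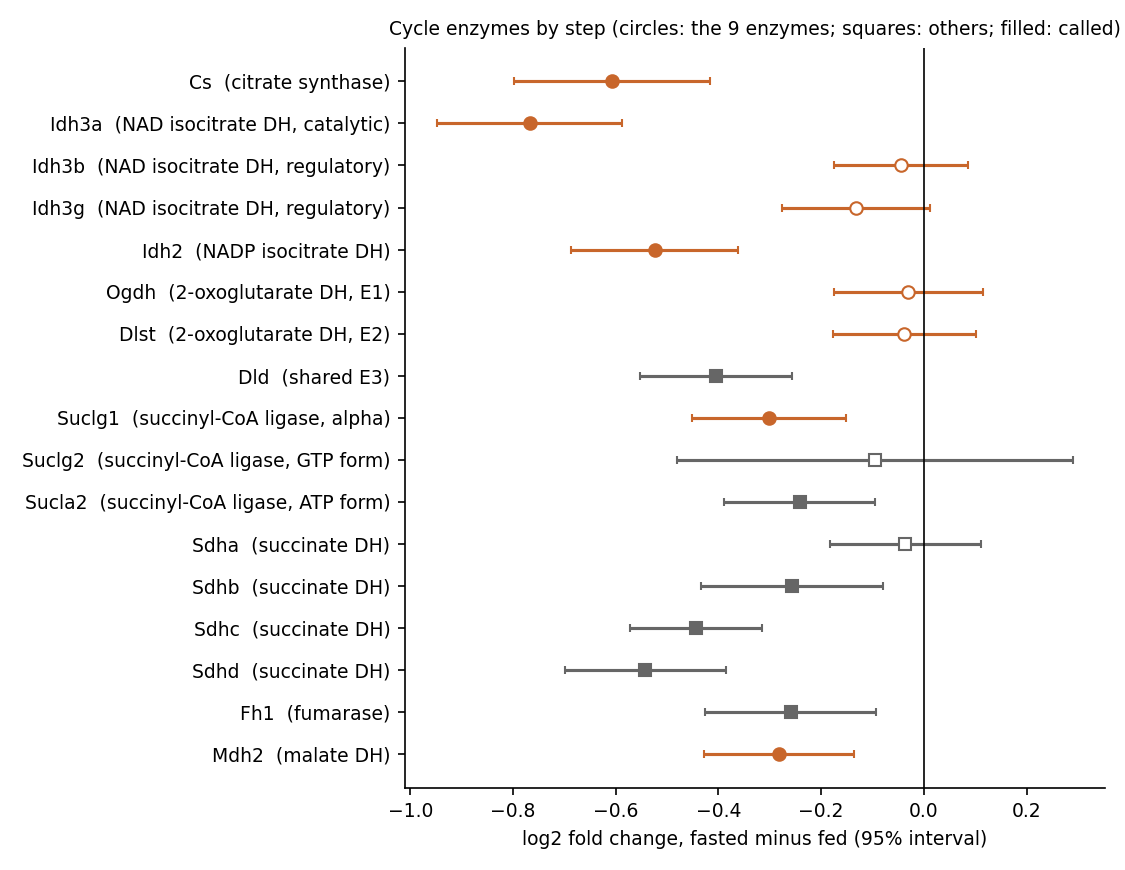
Log2 fold change (fasted minus fed) with its 95% interval for the 17 measured cycle genes in the order of the steps; circles are the 9 enzymes, squares the other cycle genes, and filled symbols mark adjusted p under 0.05. Filled symbols lie between -0.77 and -0.24, and the intervals of Idh3b, Idh3g, Ogdh, Dlst, Suclg2 and Sdha include 0.

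Genes around the cycle were read from further lists. Lipoate synthesis and attachment, relatives of Ogdh and Mrps36, a further subunit of the 2-oxoglutarate dehydrogenase complex, gave 1 lower gene of 6 measured. It was Dhtkd1, a 2-oxoadipate dehydrogenase related to Ogdh, with a log2 change of -0.23 (adjusted p = 0.0315). Its call was lost without fasted replicate 2, 4 or 6 or fed replicate 1, 3, 5 or 7 (adjusted p 0.0526 to 0.0665), without the 3 arrays that stood apart (0.0581), and with array medians subtracted (0.159). The call was also lost with cyclic loess scaling (adjusted p = 0.0682) and with adjustment over all probe sets (0.0555). The median of that list was 0.014. Ogdhl and Mrps36 were dim, with fed means of 3.03 and 3.46, so their lack of a call says little.

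The entry of pyruvate fell as a block: 5 of 5 measured genes were lower, with a median log2 change of -0.57. They were Pdhb (-0.80) and Pdha1 (-0.45), subunits of the pyruvate dehydrogenase E1, Dlat (-0.57), its E2, Pdhx (-0.72), the protein that binds E3 to it, and Mpc1 (-0.53), part of the mitochondrial pyruvate carrier. A dimmer probe set of Mpc1 gave -0.29 (adjusted p = 0.0471). The adjusted p of the 5 ran from 3.83e-05 for Dlat to 0.00196 for Pdha1. Anaplerosis, the reactions that add or withdraw cycle intermediates, was mixed. Of 10 measured genes, 2 fell and 3 rose. By the exact rank sum test, and without the 3 arrays that stood apart, 2 rose. The count that rose was also 2 without any 1 array other than fasted replicate 2 or 6. The median of the 10 genes was -0.12. Among them, Pcx, pyruvate carboxylase, which makes oxaloacetate, fell by 0.52 (adjusted p = 0.00317) and Pcca, a propionyl-CoA carboxylase subunit, by 0.61 (adjusted p = 5.55e-05), and Pck1, the cytosolic PEP carboxykinase of glyceroneogenesis, rose by 0.72 (adjusted p = 1.87e-06).

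The list of citrate export and cytosolic counterparts of cycle enzymes fell throughout, 6 of 6 genes, with a median log2 change of -1.19. Acly, which splits citrate to acetyl-CoA, went from 10.19 ± 0.41 to 8.29 ± 0.15 (SD, n = 8 each), 3.72-fold lower (adjusted p = 2.60e-08). Slc25a1, the citrate carrier of the inner membrane, had a log2 change of -1.24 (adjusted p = 9.78e-07). Cytosolic Idh1, which makes NADPH as Idh2 does in mitochondria, fell 2.64-fold (log2 change -1.40, adjusted p = 8.49e-09), beside 1.44-fold for Idh2. The differences between these cytosolic genes and the mitochondrial enzymes were not tested.

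Mitochondrial genes of other functions, such as import, protein folding and membrane shape, gave 4 lower and 1 higher of 17 measured, with a median of -0.082. The lower ones with the widest change were Tufm, the mitochondrial elongation factor (-0.48, adjusted p = 1.11e-04), Immt, a cristae organiser (-0.40, adjusted p = 8.11e-05), and Hspd1, the matrix chaperonin (-0.39, adjusted p = 0.00227). A probe set of Tufm with a lower signal gave 0.32 with an adjusted p of 0.139. Of 11 regulators known to act on mitochondrial genes, 4 rose and 1 fell. With single arrays left out and in other settings, 3 to 4 rose and 0 to 2 fell. Esrra, the estrogen-related receptor alpha, fell by 0.51 (adjusted p = 0.0145; 0.0706 by the exact rank sum test). Tfb2m, a mitochondrial transcription factor (0.55, adjusted p = 0.00127), and Myc (0.48, adjusted p = 0.00474) rose, and the other probe set of Tfb2m gave 0.35 with an adjusted p of 0.229.

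The promoters of the enzymes were set side by side because 5 of them fell together while 4 were not called. RefSeq's GRCm38.p6 promoter table held 8 of the 9, Cs, Idh3b, Idh3g, Idh2, Ogdh, Dlst, Suclg1 and Mdh2, with 13 start sites, and did not list Idh3a. Shown are the 250 bases before the start, 5′ to 3′ on the gene's strand, for Cs (chr10:128337477-128337726, plus strand), Idh2 (chr7:80115351-80115600, minus strand) and Mdh2 (chr5:135778399-135778648, plus strand), which fell, and for Idh3g (chrX:73786898-73787147, minus strand), which was not called. The Idh2 window lies within the gene span given above, so it precedes a start inside the gene. Capitals mark matches, on either strand, to the motifs named after them.
Cs: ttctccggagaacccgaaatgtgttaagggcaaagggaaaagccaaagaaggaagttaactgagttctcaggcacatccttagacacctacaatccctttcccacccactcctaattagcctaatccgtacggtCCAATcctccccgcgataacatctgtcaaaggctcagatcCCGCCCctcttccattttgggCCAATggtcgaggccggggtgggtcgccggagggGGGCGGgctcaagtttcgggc
Idh2: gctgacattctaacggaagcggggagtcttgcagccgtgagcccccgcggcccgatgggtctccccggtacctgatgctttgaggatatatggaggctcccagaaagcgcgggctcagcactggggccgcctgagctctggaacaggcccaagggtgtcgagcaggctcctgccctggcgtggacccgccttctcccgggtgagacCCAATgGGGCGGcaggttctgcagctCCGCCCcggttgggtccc
Mdh2: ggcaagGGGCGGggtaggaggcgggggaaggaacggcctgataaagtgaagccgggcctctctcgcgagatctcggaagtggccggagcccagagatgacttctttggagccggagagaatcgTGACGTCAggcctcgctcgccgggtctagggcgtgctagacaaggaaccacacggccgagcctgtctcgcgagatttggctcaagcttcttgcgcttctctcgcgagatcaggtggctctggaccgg
Idh3g: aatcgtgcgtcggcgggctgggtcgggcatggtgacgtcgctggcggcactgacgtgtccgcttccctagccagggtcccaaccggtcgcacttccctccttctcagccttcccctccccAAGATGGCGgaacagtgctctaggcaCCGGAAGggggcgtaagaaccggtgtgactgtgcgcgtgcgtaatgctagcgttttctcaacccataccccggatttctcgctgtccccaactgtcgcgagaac

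In these stretches the capitals are, for Cs and Idh2, the GC box GGGCGG, which reads CCGCCC where it lies on the other strand, and the CCAAT box CCAAT, for Mdh2 the GC box and the cAMP response element TGACGTCA, and for Idh3g the ETS motif CCGGAAG and the YY1 motif AAGATGGCG. The 8 motifs were searched on both strands in the same window of all 32851 promoters of the table, and no search excluded overlap with another motif. The GC box was in Cs, Idh2, Ogdh, Dlst and Mdh2 and in 32.7% of all promoters, and the CCAAT box in Cs, Idh3b, Idh2 and Ogdh and in 33.8%. The cAMP response element was in Ogdh and Mdh2 and in 1.55% of all promoters. An enzyme counts here if any of its starts held the motif, while the percentages are per start. Of the 13 enzyme starts, 6 held the GC box, 7 the CCAAT box and 4 the cAMP response element. Idh3g alone of the 8 held the ETS motif (6.91% of all) and the YY1 motif (0.606%), and Ogdh, which has 6 start sites in the table, alone held the NRF1 motif GCGCATGC (2.26%) and the E-box CACGTG (6.02%). The estrogen-related receptor motif TCAAGGTCA, in 0.387% of all promoters, was in the window of none of the 8, and Suclg1 held none of the motifs. No motif searched divided the enzymes that fell from those not called.

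Within the groups, the enzymes deviated only loosely together. After each group's mean was subtracted, the median Pearson r over the 36 pairs was 0.30 across 16 arrays, from -0.52 (Idh3g and Idh2) to 0.78 (Cs and Mdh2), with 23 pairs above 0. Without the 3 arrays that stood apart the median was 0.20. Values of 1 array share its RNA, labelling, hybridisation and normalization, so these r are descriptions. Fed replicate 2 was the lowest fed array on average, 0.13 below the fed mean, with 7 of the 9 enzymes below and Idh2 and Suclg1 above their means. That array also had the lowest adipocyte marker mean (11.18) and the highest cilia mean (5.54), whose part in its low values was not tested. Among fasted arrays, replicate 8 averaged 0.090 above and replicate 1 0.094 below the group mean. Fasted replicate 1 also had the highest stromal (9.71), macrophage (9.31) and mesothelial (8.03) marker means of all 16 arrays. Its adipocyte marker mean (11.29) was the lowest of the fasted arrays. The part of these in its low values was not tested.

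**Figure D5:**
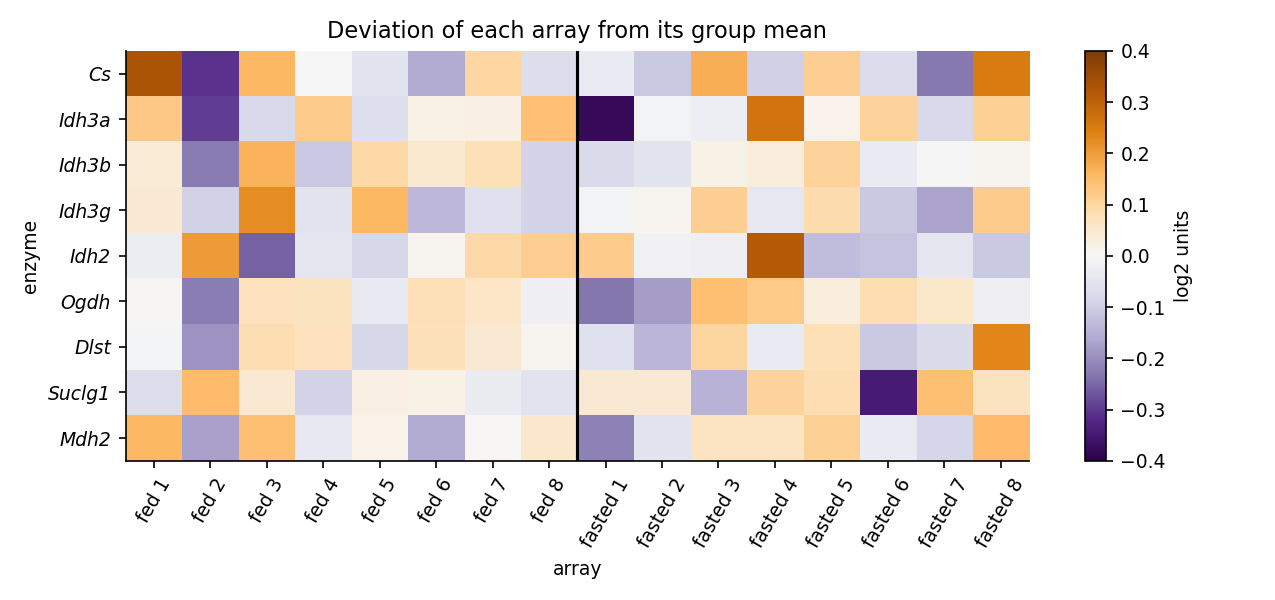
Deviation of each array (columns; 8 fed, then 8 fasted after the line) from its group mean for the 9 enzymes (rows), in log2 units, orange above and purple below. Fed replicate 2 is below its group mean for 7 enzymes and above it for Idh2 and Suclg1; Idh3a in fasted replicate 1 and Suclg1 in fasted replicate 6 are the darkest purple cells.

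The genes outside the 9 whose deviations were most like the mean of the 9 over 16 arrays were Pdha1, the pyruvate dehydrogenase E1 alpha subunit (Pearson r 0.91; 0.91 without the 3 arrays), Poldip2 (0.90; 0.87), Fh1 (0.88; 0.82), Laptm4b, a lysosomal membrane protein (0.86; 0.79), and Gbe1, the glycogen branching enzyme (0.85; 0.83). For Idh3a alone they were Ss18l2 (0.93), Ccnd2, cyclin D2 (0.92), and Rpe, ribulose-phosphate epimerase (0.91). For Cs alone they were Laptm4b (0.93), Afap1, an actin-binding protein (0.90), and Pomt1, an O-mannosyltransferase (0.87). They are the highest of all genes by this measure and were chosen for it.

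By list, the mean deviation of the 9 enzymes over 16 arrays had the highest r with pyruvate entry (0.88) and the other cycle genes (0.84), followed by anaplerosis (0.73), adipocyte markers (0.73), cytosolic counterparts (0.71) and general mitochondrial genes (0.68). The lowest r were with motile cilia (-0.53), epididymal (-0.46), stromal (-0.45) and macrophage (-0.41) markers. Without the 3 arrays that stood apart, r was 0.058 with motile cilia and 0.20 with epididymal markers, -0.54 with stromal and -0.53 with macrophage markers. Between fed and fasted arrays, the adipocyte list had a median log2 change of 0.035, with Plin1 and Retn lower and Cidec and Pnpla2 higher. Of macrophage markers, 3 of 9 rose and 1 fell, of endothelial markers 2 of 8 rose, and of stromal markers 1 of 8 fell. Over all genes, 10.7% were called lower and 8.49% higher, and of the 10832 brighter genes tested alone, 2583 were lower and 1970 higher. Of the 6 mesothelial markers, Krt19 fell (log2 change -0.55, adjusted p = 0.0487) and Upk3b had -0.50 (adjusted p = 0.0867). Their median was -0.30, near that of the 9 enzymes, and their mean level ran from 7.33 to 7.96 in fed and from 6.57 to 8.03 in fasted arrays. These small counts moved with single arrays left out and with other settings, over 0 to 3 lower calls for macrophage, 1 to 2 higher calls for endothelial, 0 to 2 higher calls for stromal and 0 to 2 lower calls for mesothelial markers. Over 16 arrays the mesothelial mean had an r of 0.069 with the enzymes. Brown adipocyte markers gave 1 lower of 7 (Cox7a1), and Ucp1, which defines that cell, was near the floor of the arrays in both groups at 2.85 ± 0.12 and 2.94 ± 0.34 (SD, n = 8 each). The part of these cell type lists in the enzymes' changes was not tested.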

How the data were processed

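RNA of 16 samples (100 ng each) was hybridised to Affymetrix whole-transcript arrays. The deposited table holds log2 expression values made by the authors with RMA, per the submitters' processing notes; the labels name no software version or background setting. RMA computed its normalization over all arrays together, so arrays are not fully independent. Of 41345 probe sets, 23521 had 1 symbol in the platform annotation, 1814 several and 16010 were unnamed. No further normalization or filter was applied.

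Groups were compared over 22180 genes with limma 3.58.1 in R 4.3.3 (lmFit, eBayes) and Benjamini-Hochberg adjustment, checked on simulated data. Pairs of enzymes were compared by two-sided exact permutation tests in Python 3.11.15, and figures drawn with matplotlib 3.10.9. The enzymes and lists were chosen with earlier results of these data known. The arrays gave values for 67 of 71 pathway list entries and 101 of 113 cell type entries; none of the red blood cell genes had one. Named genes were the 9 enzymes, the other cycle genes, up to 3 called genes with the largest change per pathway list (lists of 5 or fewer whole), and those most like the enzymes across arrays. The number of arrays limits the precision. Alternatives were other scalings, filters, variance models, probe sets, tests and thresholds, a replicate block, and arrays left out.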

Additional observations from a re-analysis of the deposited data

Results flagged for a closer look

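Among the 47 named genes, 94 groups of 8 arrays were checked for an array far from the rest, that is, with a gap to its nearest neighbour that takes more than the critical share of the group's range (Dixon's 95% value). There were 4 such cases, and chance alone marks about 1 group in 20. Ogdh in fed replicate 2 was 9.40 with the next array at 9.58. Sdhb in the same array was 8.35 with the next at 8.61. Sdhd in fasted replicate 1 was 8.04 with the next at 8.35. Suclg2 in fed replicate 4 was 7.60 with the next at 8.35.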

How the results depend on the processing

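The count of 5 lower enzymes was made in every analysis that left out 1 array. Over the same analyses the counts ran from 2112 to 2445 lower and 1673 to 1910 higher of all genes, from 24 to 28 lower and 6 to 8 higher genes of the pathway lists, and from 22 to 25 called pairs. At an adjusted p under 0.01, 1552 genes were lower and 1214 higher, against 2368 and 1883. With array medians subtracted, 54.65% of 3817 called genes were higher, against 44.3% of 4251. The lower-signal probe set of Tufm reversed it, to 0.32; the cause was not tested. Over 27 alternatives, 28 of 39 called named genes kept their call in all and 11 lost or reversed it in at least 1, and 1 of those not called gained it. Over 19 alternatives, 20 of the called pairs kept their call in all and 4 lost it in at least 1. Of the pairs not called, 4 gained a call in at least 1.

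The replicate numbers were shared between groups, but same-numbered arrays did not deviate together (r from -0.216 to 0.218, and 2 of 8 arrays closest to their own number). With the replicate number as a block, 5 enzymes, 2147 lower and 1682 higher genes were called; Sdhb (adjusted p = 0.0597) and the pairs of Suclg1 with Cs and Idh2 (0.0865 each) and Dlst (0.0511, exact sign-flip permutation) were not.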
